A study of Mus musculus with 6 samples.

Results

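Transcripts of 10 genes for proteins of the basement membrane were measured in mouse embryonic stem cells (ESCs) with and without miR-302. The genes were listed by name: the laminin chain genes Lama1, Lama5, Lamb1 and Lamc1, the collagen IV genes Col4a1 and Col4a2, the nidogen genes Nid1 and Nid2, the perlecan gene Hspg2, and Sparc. All 10 had a row of their own on the array, out of 22180 genes tested. Each gene stands by the row that the platform annotation gives to it alone, and by the row with the highest mean where it has several, which applied to Nid1.

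All 6 arrays hold total RNA of Dgcr8-/- ESCs, so both groups lack Dgcr8, which helps the nuclease Drosha to cut primary miRNA transcripts, and with it canonical miRNAs. A control hairpin was present in 3 samples, and the other 3 had a hairpin for miR-302, one of the main miRNA families of pluripotent cells. The submitters describe the 3 samples of each group as biologically independent. The labels give no promoter for the hairpins, no number of clones and no culture time, and do not say which members of the miR-302 family the hairpin makes. The comparison asks what miR-302 alone does to transcripts in cells without other canonical miRNAs.

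A basement membrane is a thin sheet of matrix under epithelia and around many other cells. Laminins are trimers of an alpha, a beta and a gamma chain that self-assemble at the cell surface, and collagen IV forms a second network that gives the sheet its strength. Nidogens and the heparan sulfate proteoglycan perlecan bridge the networks, and Sparc is a secreted protein that binds collagen. In the early mouse embryo such sheets form between the epiblast, the primitive endoderm and the trophectoderm, and parietal endoderm deposits a thick one.

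The mature sequences of the miRNA that separates the groups are given here because its seed, bases 2 to 8 in capitals, is the stretch that pairs with targets. They are credited to RefSeq (GRCm38.p6, plus strand), at chr3:127545275-127545297 for miR-302b, chr3:127545406-127545427 for miR-302c and chr3:127545665-127545687 for miR-302d.
mmu-miR-302b-3p: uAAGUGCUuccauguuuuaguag
mmu-miR-302c-3p: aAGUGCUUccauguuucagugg
mmu-miR-302d-3p: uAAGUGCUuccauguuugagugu
The sequences of miR-302b and miR-302d share the seed AAGUGCU. That of miR-302c starts 1 base later in the table, so its seed by position is AGUGCUU. The family also has miR-302a. Sites for these seeds in the 10 transcripts were not analysed here.

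Values are log2 expression levels as deposited, and a difference of 1 is a 2-fold change. A gene was called when its limma adjusted p, corrected over all 22180 genes, was under 0.05. With miR-302, 1592 genes (7.18%) were called higher and 2051 (9.25%) lower. The groups did not overlap for 35.8% of all genes, 16.8% with the miR-302 arrays above and 19.0% with them below. Replicate 1 of miR-302 stood apart: 1955 genes lay over 0.5 log2 from the mean of the other miR-302 arrays, against 367 to 814 for each other array. Ccnd2, a reported miR-302 target, was 11.38 to 11.44 in control arrays and 8.56, 8.09 and 8.13 in miR-302 replicates 1, 2 and 3. The Mir302b row was 4.15 to 4.43 in control arrays and 4.58, 5.45 and 5.61 with miR-302, so replicate 1 was nearest to the controls there. In the rows of Mir302a, Mir302c and Mir302d, replicate 1 was within the range of the controls, at 4.50, 5.44 and 3.85 against 4.10 to 4.51, 5.27 to 5.56 and 3.15 to 3.96. The control and replicate 1 values of all these Mir302 rows lay below the median gene level of 6.16. Signal and background are not distinguished there, so these rows do not show whether replicate 1 held miR-302. Dgcr8 shares its row with another gene and was not analysed here.

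With miR-302, Lamb1, Lama1, Hspg2 and Lama5 rose, by 3.66-fold, 2.26-fold, 1.51-fold and 1.43-fold, and each of them was called whichever of the 6 arrays was left out. Col4a1 and Col4a2 were higher on average, by 1.86-fold and 1.65-fold, without passing the test. The control arrays of Col4a2 lay below the median gene level of 6.16, where signal and background are not distinguished in these values. Lamc1, Nid1, Nid2 and Sparc were not called, and their average changes were within 1.10-fold. So 4 of 10 genes were called higher and 0 lower (limma), against 7.18% and 9.25% of all genes. At an unadjusted limma p under 0.05, 6 were higher and 0 lower, against 3145 and 3553 of all 22180 genes. By their mean over all arrays, all 10 were at or above the median gene level, where a larger share of genes was called. In a fit on such genes alone, 1815 of 11090 were called higher and 2479 lower, and 6 and 0 of the 10. Col4a2 is among these 6 but passed the filter only through its miR-302 arrays, with means of 6.03 in control cells and 6.75 with miR-302. Its call there is therefore no further support. The median log2 change of the 10 genes was 0.56, and that of all genes 0.01. The list was drawn up with earlier results of these data known, Lamb1 and Lama1 among them, so its count is a description.

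**Figure D1:**
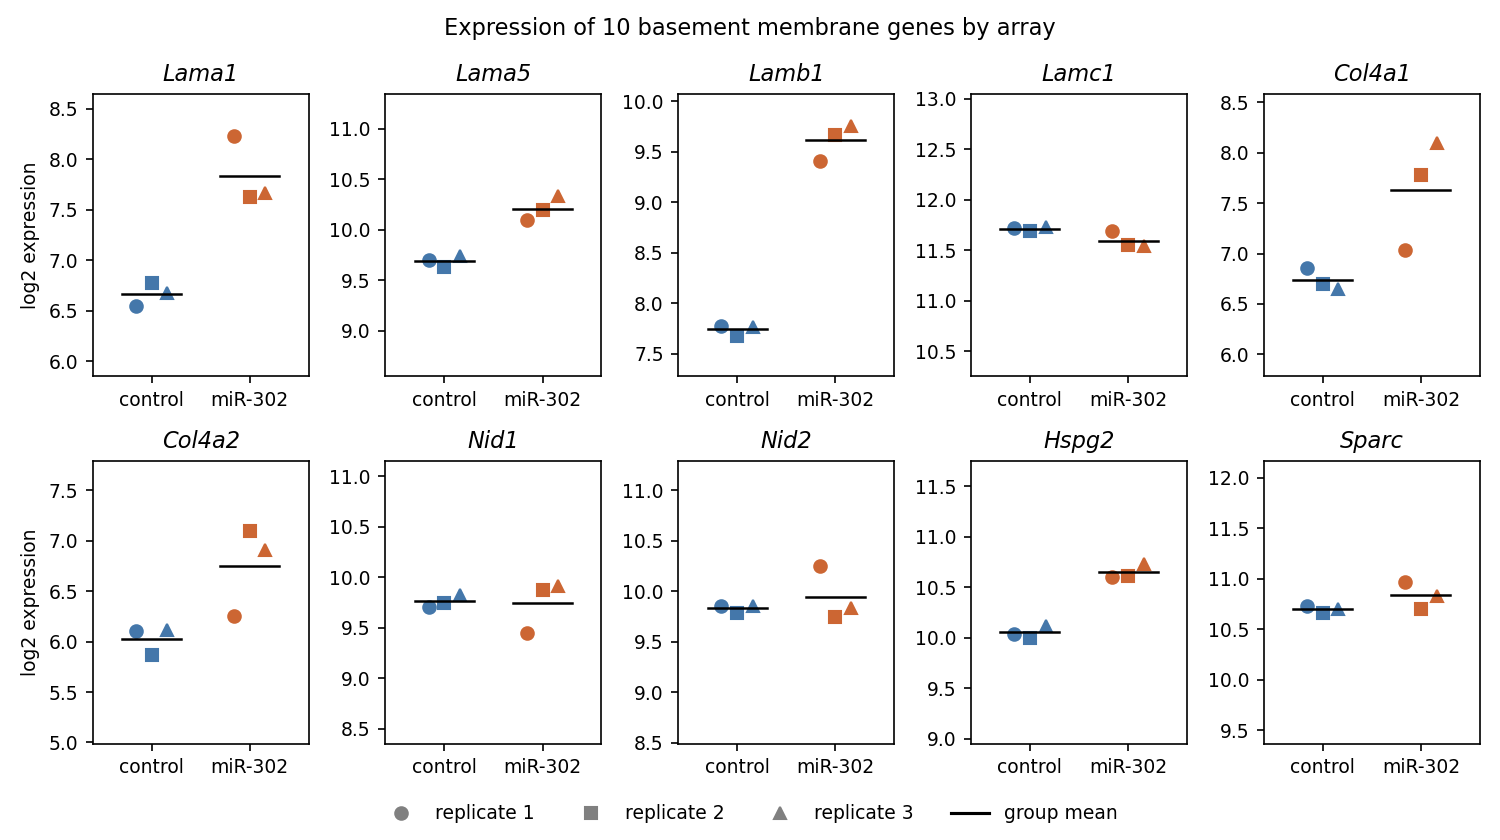
Log2 expression of each of the 10 genes (vertical axis, the same number of log2 units in each panel) on the 3 control and 3 miR-302 arrays; symbols mark the replicate number and lines the group mean. Lamb1, Lama1, Lama5 and Hspg2 lie higher on every miR-302 array, while the groups of Lamc1, Nid1, Nid2 and Sparc overlap.

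Among the laminin chains, Lamb1 changed most. This gene encodes a beta chain shared by many laminin trimers. Lamb1 was 7.78, 7.68 and 7.77 in control replicates 1, 2 and 3 and 9.41, 9.67 and 9.76 in the miR-302 replicates. The lowest miR-302 array was thus well above the highest control array. The means were 7.74 ± 0.06 and 9.61 ± 0.18 (SD, n = 3 each), a log2 change of 1.87 ± 0.10 (SE; limma adjusted p = 0.000305). Leaving out any 1 array gave changes of 1.80 to 1.97 and adjusted p-values up to 0.00402.

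Lama1 encodes the alpha chain of the first laminin trimer found in the mouse embryo, in which it joins the products of Lamb1 and Lamc1. Its values were 6.55, 6.77 and 6.67 in control cells and 8.23, 7.62 and 7.66 with miR-302. No miR-302 array overlapped the controls, and replicate 1 was the highest. The log2 change was 1.17 ± 0.17 (SE; limma adjusted p = 0.00637), from a mean of 6.66 ± 0.11 to 7.84 ± 0.34 (SD, n = 3 each), and 0.98 without miR-302 replicate 1. Lama5, the alpha chain gene of a laminin that supports pluripotent cells and lies under many epithelia, was 9.70, 9.63 and 9.74 in control cells and 10.10, 10.19 and 10.33 with miR-302. These groups did not overlap either. Lama5 rose by 0.52 ± 0.08 on the log2 scale (SE; limma adjusted p = 0.00902), with adjusted p-values up to 0.0433 when 1 array was left out.

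Lamc1 encodes the gamma chain that these alpha and beta chains join. It was 11.72, 11.69 and 11.73 in control cells and 11.69, 11.55 and 11.54 with miR-302. Replicate 1 fell on the level of a control array, and the others were slightly lower. The difference of −0.12 ± 0.07 (SE) on the log2 scale was not called (limma adjusted p = 0.324), and its 95% confidence interval ran from −0.29 to 0.05.

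The changes of laminin chains were also set against each other. Within each array, the log2 difference of Lamb1 from Lamc1 shifted by 1.99 between the groups, and that of Lama1 from Lamc1 by 1.29. For both pairs the groups did not overlap, and the exact two-sided permutation test gave p = 0.1, the smallest that 3 against 3 arrays allow (adjusted p = 0.2 over the 6 pairs compared). The shift of Lama1 against Lamb1 was −0.70, with overlapping groups (exact permutation p = 0.2, adjusted 0.3). Lama5 changed by 0.66 less than Lama1 (exact permutation p = 0.1, adjusted 0.2). None of the 6 pairs could reach 0.05 in this design.

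The collagen IV genes encode the chains of the most widespread collagen IV trimer. Col4a1 was 6.86, 6.70 and 6.65 in control cells and 7.03, 7.78 and 8.09 with miR-302. Col4a2 was 6.10, 5.87 and 6.11 and then 6.25, 7.09 and 6.91. For both genes all miR-302 arrays lay above all control arrays, but replicate 1 only slightly. The log2 changes were 0.90 ± 0.25 for Col4a1 and 0.72 ± 0.21 for Col4a2 (SE), and neither was called (limma adjusted p = 0.0570 and 0.0652), with 95% confidence intervals of 0.29 to 1.5 and 0.21 to 1.23. Without miR-302 replicate 1 they rose by 1.2 and 0.97 (limma adjusted p = 0.00167 and 0.00230), whereas neither was called when another array was omitted, with adjusted p-values up to 0.157 and 0.182. The change of Col4a2 was 0.17 smaller than that of Col4a1, which the exact permutation test did not separate from 0 (p = 0.5, adjusted 0.6).

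Col4a1 and Col4a2 lie head to head and are transcribed in opposite directions. In the RefSeq promoter table (GRCm38.p6) their start sites are 21 bases apart on chromosome 8, so that their windows, 250 bases before to 50 after the start, share 78 bases. By these start sites each gene reads into the other, so the stretch from one start to the other lies after both starts. It belongs to the first bases of both transcripts, not to a stretch before them. It is shown here (chr8:11312805-11312826, plus strand, the sense strand of Col4a2), with a GC box, the letters GGGCGG, in capitals.
Col4a1 and Col4a2: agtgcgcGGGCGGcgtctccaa

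The nidogen genes encode linker proteins that tie laminin to collagen IV. Nid1 was 9.71, 9.75 and 9.82 in control cells and 9.45, 9.87 and 9.91 with miR-302, and Nid2 was 9.86, 9.79 and 9.86 and then 10.25, 9.75 and 9.84. In miR-302 replicate 1 Nid1 was below every other array and Nid2 above every other array, while replicates 2 and 3 were near the controls. Nid1 changed by −0.02 ± 0.13 (SE), with a 95% confidence interval of −0.33 to 0.29 (limma adjusted p = 0.953), and its other row gave −0.02 too. Nid2 changed by 0.11 ± 0.13 (SE), with an interval of −0.21 to 0.43 (limma adjusted p = 0.649). The sign of either change turned when miR-302 replicate 1 was left out, to 0.13 for Nid1 and −0.04 for Nid2.

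Hspg2, which encodes perlecan, had the smallest standard error among the genes that rose. Its values were 10.04, 10 and 10.12 in control cells and 10.60, 10.61 and 10.73 with miR-302. The groups were apart, and replicate 1 lay beside the other miR-302 arrays. Means of 10.05 ± 0.06 and 10.65 ± 0.07 (SD, n = 3 each) gave a log2 change of 0.59 ± 0.07 (SE; limma adjusted p = 0.00397). Sparc was 10.73, 10.66 and 10.70 in control cells and 10.97, 10.70 and 10.83 with miR-302. Replicate 2 fell within the controls. Its change of 0.14 ± 0.09 (SE) was not called (limma adjusted p = 0.352; 95% confidence interval −0.07 to 0.34).

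**Figure D2:**
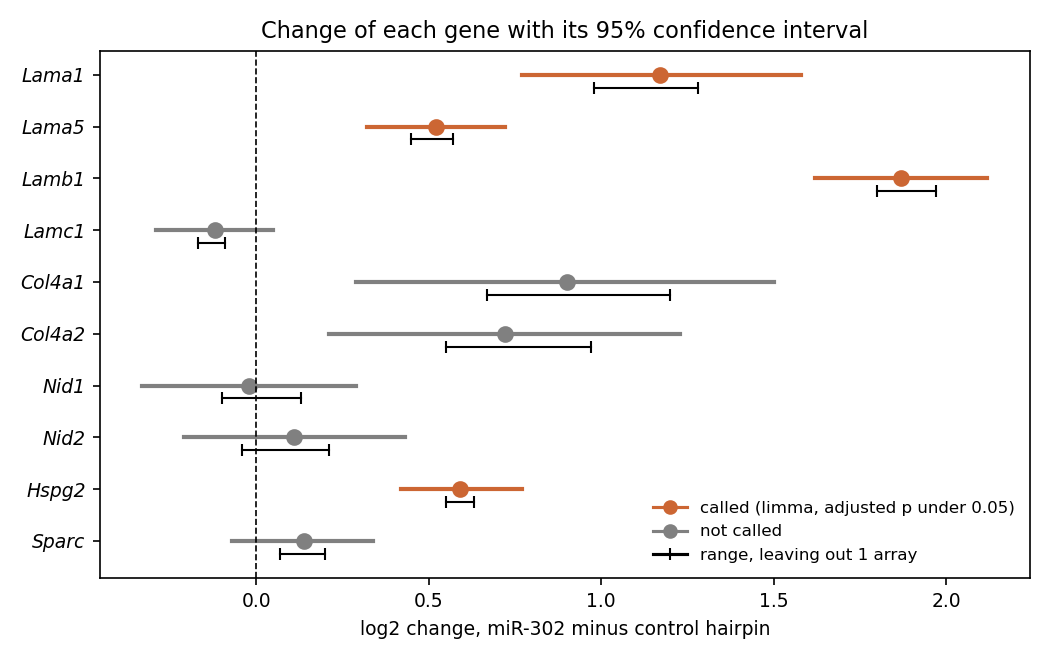
Log2 change of each gene, miR-302 minus control hairpin (points), with its 95% confidence interval from limma (thick bars) and the range when 1 array was left out (thin bars). The intervals of Lamb1, Lama1, Hspg2 and Lama5 lie above 0 and these genes were called; those of Col4a1 and Col4a2 also lie above 0 but the genes were not called after adjustment over all genes.

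The genes did not share 1 order among the miR-302 arrays. Replicate 1 was the lowest of its group for 6 genes (Lamb1, Lama5, Hspg2, Col4a1, Col4a2 and Nid1) and the highest for 4 (Lama1, Lamc1, Nid2 and Sparc). Against the control mean, Col4a1 was 0.29 higher in replicate 1 and 1.04 and 1.35 higher in replicates 2 and 3. Lama1 was 1.57 higher in replicate 1 and 0.96 and 1.0 higher in the others. With replicate 1 left out, 6 of the 10 genes were called higher, against 11.2% of all genes, and with any other array left out 4 were. All genes called higher were then 3.09%, 3.24% and 3.12% without control replicates 1, 2 and 3, and 3.88% and 3.49% without miR-302 replicates 2 and 3. With the replicate number as a block the count was 4 as well, against 4.35% of all genes.

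**Figure D3:**
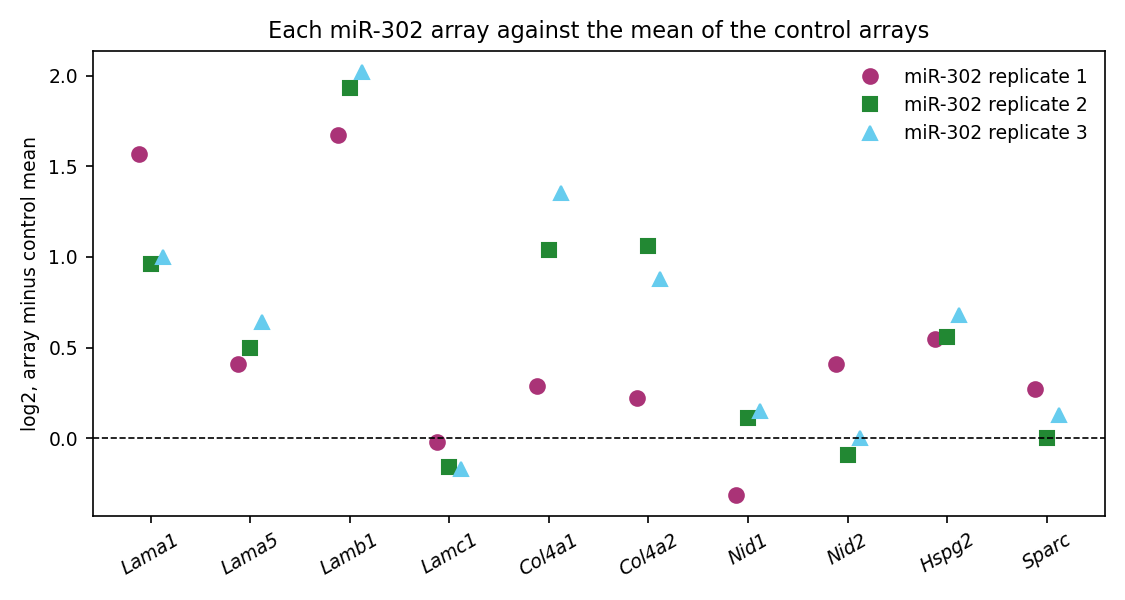
Level of each gene on each miR-302 array minus the mean of the 3 control arrays (log2, vertical axis); the dashed line at 0 is the control mean. Replicate 1 lies below the others for Col4a1 (0.29 against 1.04 and 1.35) and Col4a2, and above them for Lama1 (1.57 against 0.96 and 1.0) and Nid2.

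Promoter windows of 300 bases were found for 7 of the 10 genes, all but Lama1, Lamc1 and Nid2. A GC box (GGGCGG, either strand) was in 6 of these windows, all but that of Sparc, and in 35.7% of all 32851 windows. Hspg2 had 5, Lama5 4, Col4a2 3, Lamb1 2, and Col4a1 and Nid1 1 each. The windows of Col4a1 and Col4a2 share bases, so their counts are not separate. A CCAAT box (CCAAT, either strand) was in the windows of Lamb1, Col4a1, Col4a2 and Nid1, and in 37.4% of all windows. A TATA box (TATAAA, either strand) was in none of the 7, and in 13.6% of all windows. The part of the window before the first annotated start is printed for 3 genes that rose, with GC and CCAAT boxes in capitals: Lama5 at chr2:180225905-180226109 (minus strand), Lamb1 at chr12:31265043-31265145 and Hspg2 at chr4:137468553-137468750 (plus strand).
Lama5: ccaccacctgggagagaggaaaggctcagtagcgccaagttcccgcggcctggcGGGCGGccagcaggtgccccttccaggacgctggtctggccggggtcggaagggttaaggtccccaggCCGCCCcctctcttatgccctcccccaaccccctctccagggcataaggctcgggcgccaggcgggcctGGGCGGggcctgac
Lamb1: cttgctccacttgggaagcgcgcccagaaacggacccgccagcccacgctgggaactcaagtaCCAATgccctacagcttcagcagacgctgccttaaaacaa
Hspg2: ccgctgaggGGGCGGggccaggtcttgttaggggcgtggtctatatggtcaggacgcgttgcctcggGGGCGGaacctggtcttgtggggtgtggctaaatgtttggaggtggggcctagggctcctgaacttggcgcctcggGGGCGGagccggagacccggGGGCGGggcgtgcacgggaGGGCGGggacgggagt
Both GC boxes of Lamb1 and 1 of those of Lama5 lie after the printed stretch. A match describes the letters of the window and was not set against binding data.

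The other genes of the basement membrane, its receptors and its processing were taken from 6 further lists. Of 65 measured genes, 12 were called higher (7.18% of all genes were) and 9 lower (9.25%), with a median log2 change of 0.05. Leaving out miR-302 replicate 1 raised these counts to 15 and 12 (11.2% and 13.1% of all genes), and leaving out any other array lowered them to 6 and to 5 or 6. Without any one of those other arrays, 3.09% to 3.88% of all genes were called higher, and 1043 to 1216 of the 22180 genes lower. The counts of each list below stand against these values. Of the called genes named below, Ddr2, P4ha2 and Plau had both group means below the median gene level of 6.16. Lamb3, Itga1, Itga7 and Timp3 had a control mean below it. Signal and background are not distinguished there in these values.

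The remaining laminin chains moved both ways. Of 6 measured, Lamb3 was higher, Lamb2 lower and 4 were not called, against 7.18% of all genes higher and 9.25% lower. Lamb2, the beta chain gene that stands in for Lamb1 at neuromuscular and kidney basement membranes, fell from 8.29, 8.20 and 8.14 to 7.5, 7.59 and 7.68. Its log2 change of −0.62 ± 0.08 (SE; limma adjusted p = 0.00437) went against that of Lamb1, and both calls held whichever array was left out. Lamb3, a chain gene of the laminin of skin, changed by 0.87 ± 0.19 (SE; limma adjusted p = 0.0231) and was not called in 3 of the 6 leave-one-out fits. The other collagen IV chain genes, Col4a3, Col4a4, Col4a5 and Col4a6, were between 4.67 and 5.23 on every array, below the median gene level of 6.16, where signal and background are not distinguished in these values. Their changes were 0.07 to 0.23, with 0 called (limma). At an unadjusted limma p under 0.05, 1 was higher, against 3145 of all 22180 genes.

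Among 20 other components, 3 were called higher, 1 lower and 16 not, against 7.18% of all genes higher and 9.25% lower. Tinagl1, which encodes a secreted protein of basement membranes, changed most. It was 6.25, 5.99 and 6.36 in control cells and 8.15, 9.62 and 9.67 with miR-302, and rose by 2.95 ± 0.40 on the log2 scale (SE; limma adjusted p = 0.00493). Replicate 1 was again the lowest miR-302 array, yet far above the controls. Fbln1, the gene of the matrix glycoprotein fibulin-1, fell from 9.23, 9.10 and 9.09 to 8.19, 7.74 and 7.78, a log2 change of −1.24 ± 0.13 (SE; limma adjusted p = 0.00239). Pxdn, whose enzyme cross-links collagen IV, and Smoc1, a relative of Sparc, were higher by 0.51 ± 0.12 and 0.36 ± 0.08 (SE), and each went uncalled in 5 of the 6 leave-one-out fits. The count of 3 higher became 4 without miR-302 replicate 1 (11.2% of all genes) and 1 when another array was omitted.

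Of 11 receptor genes for laminin and collagen IV, 4 were called higher and 1 lower (7.18% and 9.25% of all genes). Their median log2 change was 0.24. Itga1, the alpha subunit gene of a collagen IV receptor, was 5.50, 5.77 and 5.77 in control cells and 7.05, 8.15 and 7.85 with miR-302, and rose by 2.0 ± 0.27 on the log2 scale (SE; limma adjusted p = 0.00481). Every miR-302 array was above the controls. The laminin receptor subunit genes Itga3 and Itga7 rose by 0.86 ± 0.08 and 0.67 ± 0.08 (SE; limma adjusted p = 0.00146 and 0.00358). Of the collagen receptor kinase genes, Ddr1 changed by 0.70 ± 0.15 and Ddr2 by −0.61 ± 0.14 (SE), and they were not called in 5 and 3 of the 6 leave-one-out fits. Ddr2 is named outside the naming rule, with its value known.

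Of 13 genes for folding and export of collagen, 3 were called lower (9.25% of all genes), 1 higher (7.18%) and 9 not. Their median log2 change was −0.15. Crtap, a part of the complex that hydroxylates collagen prolines, fell from 10.97, 10.87 and 10.80 to 10.11, 9.88 and 9.89, a log2 change of −0.92 ± 0.09 (SE; limma adjusted p = 0.00202). Serpinh1, the gene of the collagen chaperone HSP47, fell from 9.55, 9.50 and 9.45 to 9.01, 8.73 and 8.81, a log2 change of −0.65 ± 0.09 (SE; limma adjusted p = 0.00574). The groups of both genes were apart, and both calls held in every fit that left out 1 array. Colgalt1, a collagen galactosyltransferase gene, changed by −0.63 ± 0.13 and P4ha2, a prolyl hydroxylase gene, by 0.36 ± 0.09 (SE), and each went uncalled in 5 of the 6 leave-one-out fits. The list had 6 lower and 1 higher when miR-302 replicate 1 was omitted (13.1% and 11.2% of all genes). It had 2 lower and 0 higher when any other array was, against 1043 to 1216 lower and 685 to 861 higher of all 22180 genes.

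Proteases and inhibitors that act on the matrix were split, with 3 of 11 called higher and 3 lower (7.18% and 9.25% of all genes). Timp3, the gene of a metalloprotease inhibitor that stays bound to the matrix, was 5.77, 6.03 and 5.81 in control cells and 7.42, 7.11 and 7.55 with miR-302, and rose by 1.49 ± 0.13 on the log2 scale (SE; limma adjusted p = 0.00133). The gelatinase genes, whose enzymes cut denatured collagen and collagen IV, went opposite ways. Mmp9 changed by 1.09 ± 0.19 and Mmp2 by −0.84 ± 0.16 (SE), and they went uncalled in 2 and 5 of the 6 leave-one-out fits. Plau, the urokinase gene, was higher by 0.57 ± 0.12 (SE), and went uncalled in 5 of these fits. The other lower genes, Timp1 and Mmp14, changed by −0.47 each, uncalled in 0 and 4 of these fits, and are named outside the naming rule, with their values known. Omitting miR-302 replicate 1 left 3 genes lower (13.1% of all genes) and brought the higher ones to 5 (11.2%). Omitting another array gave 1 or 2 in each direction, against 685 to 861 higher and 1043 to 1216 lower of all 22180 genes.

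**Figure D4:**
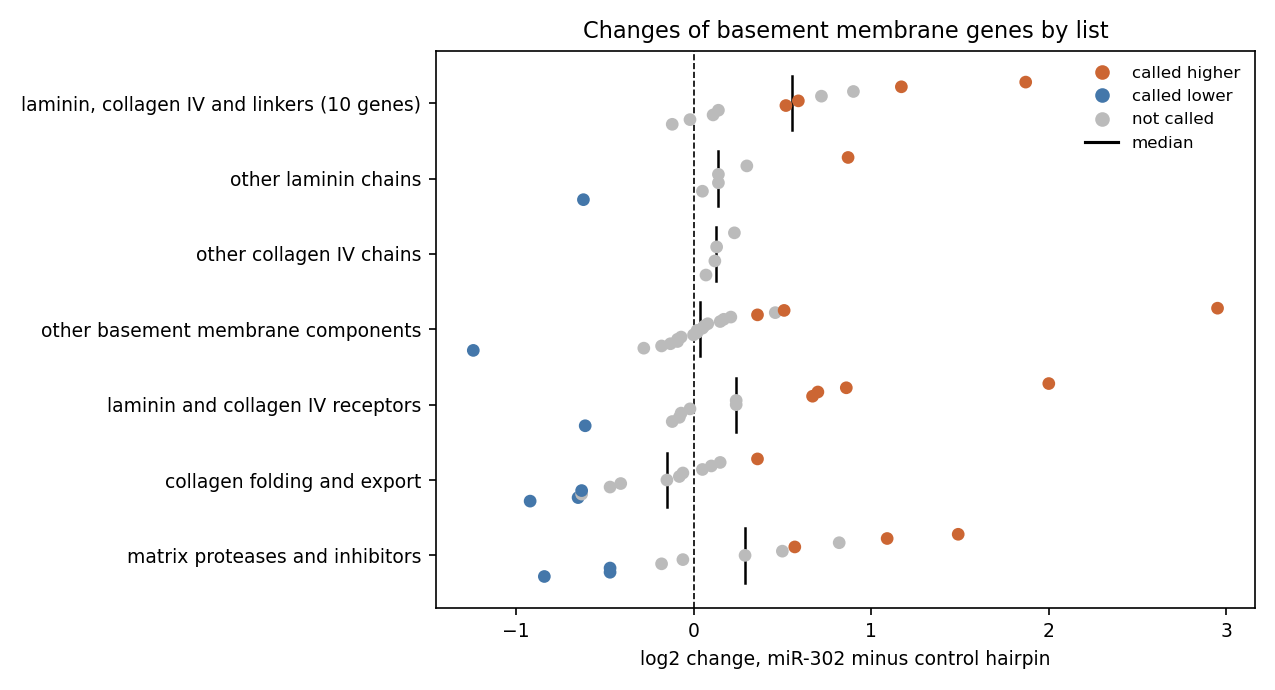
Log2 change of each measured gene, miR-302 minus control hairpin (horizontal axis), in the 10 basement membrane genes and the 6 further lists; colour shows the limma call and vertical lines the list median. The point at 2.95 among the other components is Tinagl1; the median is highest for the 10 genes, at 0.56, and below 0 only for collagen folding and export, at −0.15.

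Marker genes of cell types were read on the same arrays, where 7.18% of all genes were called higher and 9.25% lower. At an unadjusted limma p under 0.05, 3145 of all 22180 genes were higher and 3553 lower. Nanog, Tdgf1 and Utf1 had the highest levels among the 8 ESC markers and were named for that. Their control means were 12.85, 12.53 and 11.93, and their miR-302 means 12.74, 12.68 and 12.19. Of the 8, 7 reached the median gene level of 6.16. Dppa5a lay below it, with a control mean of 5.64 and a miR-302 mean of 5.44. This gene is named outside the naming rule, with its value known. Of 8 ESC markers 0 were called (limma; 1 higher and 2 lower at an unadjusted p under 0.05). Without miR-302 replicate 1, 2 were called lower (13.1% of all genes), Sox2 and Zfp42 (limma adjusted p = 0.00627 and 0.0119). Their log2 differences over all arrays were −0.33 and −0.27, and they are named outside the naming rule, with their values known. Of the trophoblast markers, 7 of 10 were called higher and 0 lower (limma), against 7.18% and 9.25% of all genes. At an unadjusted limma p under 0.05, 8 were higher and 0 lower. Their mean level was 6.17 to 6.30 on control arrays and 7.32 to 7.98 on miR-302 arrays. The keratin genes Krt18 and Krt8 and the transcription factor gene Ascl2 rose by 4.03, 3.31 and 1.82 on the log2 scale, Krt18 by 4.66 without miR-302 replicate 1. The control mean of Ascl2, 5.72, lay below the median gene level. Tfap2c, a trophoblast factor gene that ESCs also express, was 9.35 ± 0.07 and 9.70 ± 0.17 (SD, n = 3 each) and was not called (limma adjusted p = 0.0602).

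Markers of parietal and of primitive endoderm were read together as a list. Of these 11 markers, 3 were called higher and 1 lower (7.18% and 9.25% of all genes), and 2 of the 11 reached the median gene level of 6.16. The change was above 0 for 10 of the 11, with a median log2 change of 0.15. Their mean level was 5.42 to 5.50 on control arrays and 5.62 to 5.76 on miR-302 arrays. Pdgfra rose by 0.84 ± 0.14 to 5.24 ± 0.25 (SE of the change; SD of the level, n = 3), and was called in all 6 leave-one-out fits. Dab2 and Foxa2 were higher by 0.63 and 0.25, and Gata4 changed by −0.43, but went uncalled in 5, 6 and 5 of these fits. The counts were 1 higher and 0 lower when an array other than miR-302 replicate 1 was omitted. Of all 22180 genes, 685 to 861 were then higher and 1043 to 1216 lower.

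Visceral endoderm markers had 0 of 7 called higher and 1 lower (limma; 1 higher and 1 lower at an unadjusted p under 0.05). Of all genes 7.18% were called higher and 9.25% lower. At an unadjusted limma p under 0.05, 3145 of all 22180 genes were higher and 3553 lower. The mean level of the markers was 5.89 to 5.97 on control arrays and 5.92 to 6.0 on miR-302 arrays. The lower gene was Cubn, which encodes an endocytic receptor, with a log2 change of −0.50 ± 0.07 (SE; limma adjusted p = 0.00570). Its means of 5.57 in control cells and 5.07 with miR-302 lay below the median gene level of 6.16, where signal and background are not distinguished. Over all 6 arrays the highest levels were those of Rhox5, Apoa1 and Ttr, with control means of 8.89, 6.16 and 5.32 and miR-302 means of 9.21, 6.23 and 5.46. Of 9 fibroblast markers 1 was called higher and 1 lower (limma; 4 higher and 1 lower at an unadjusted p under 0.05), and their mean level was 5.07 to 5.17 on control arrays and 5.23 to 5.39 on miR-302 arrays. The higher gene was Twist1 and the lower Thy1, with changes of 0.42 and −0.38, and both went uncalled in 5 of the 6 leave-one-out fits. The fibrillar collagen genes Col1a1 and Col3a1, among the highest of this list, were 6.37 ± 0.21 and 6.28 ± 0.28 in control cells and 6.86 ± 0.34 and 6.35 ± 0.27 with miR-302 (SD, n = 3 each). The part of other cell types in the laminin changes was not tested, and in bulk RNA a change in the share of cells that express a gene and a change in RNA per cell cannot be told apart.

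The genes most like the trimer of Lama1, Lamb1 and Lamc1 were sought among called genes outside all lists, by Pearson's r over the 6 arrays with the mean log2 level of the trimer's genes. That mean was 8.68, 8.71 and 8.72 on control arrays and 9.78, 9.61 and 9.65 on miR-302 arrays. Genes under provisional names and small RNA genes were passed over. Among the rest, the highest r belonged to Nup62cl (0.999), the homeobox gene Meis1 (0.999), the co-chaperone gene Bag1 (0.999), Ptprn (0.998) and the cell polarity gene Llgl2 (0.998). Meis1 was 5.64, 5.76 and 5.73 in control cells and 7.93, 7.75 and 7.76 with miR-302, a log2 change of 2.10, with replicate 1 the highest as in the trimer's mean. The arrays fall into the groups compared, so such an r mostly records that a gene differs between them, and it is given as a description.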

How the data were processed

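Total RNA of 3 control hairpin and 3 miR-302 samples was measured on single-colour arrays, per the labels' protocols. The authors deposited values processed with RMA (background correction, quantile normalization, summary of probes), per the submitters' processing notes. The authors' RMA values are taken as log2 expression, with array medians of 5.60 to 5.62. The sources used here do not give their log base, the RMA version or the build, and a shift of all genes together is hidden by RMA. The number of arrays limits the precision. Of 33649 rows, 23521 name a single gene in the platform annotation, 1814 several and 8314 none. The row with the highest mean stood for a gene, which left 22180 genes, 21994 of them with an Entrez identifier in RefSeq (GRCm38.p6).

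Groups were compared gene by gene with limma's lmFit and eBayes (version 3.58.1, R 4.3.3, two-sided), with Benjamini-Hochberg adjustment over all genes and a threshold of 0.05. SE is limma's. Pairs of genes were compared with the exact permutation test in scipy 1.17.1, and figures were drawn with matplotlib 3.10.9. Data were also simulated over 22180 genes, with 75, 66 and 59 of them changed 1.5-fold, 2-fold and 4-fold. Of these 53.3%, 77.3% and 98.3% were recovered, with 7 false calls of 156. The simulation gave both groups the same noise, had no array standing apart and changed far fewer genes than were called here. Its shares therefore do not give the power of the real comparison.

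Named genes are the 10 members, up to 4 called genes of each further list with the largest change, all other collagen IV chains, up to 3 markers by level and 3 called by change, and the 5 most alike. The members and lists were chosen with earlier results of these data known. The alternatives were a replicate block, leaving out each array, an intensity trend with a robust prior, a filter on genes below the median level, quantile normalization, the mean of a gene's rows and array weights. For the pairs, alternatives were chosen after seeing the data. Listed genes without a row of their own were not analysed here.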

Additional observations from a re-analysis of the deposited data

How the results depend on the processing

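The calls of Lamb1, Lama1, Lama5 and Hspg2 held under all 12 alternatives. Of 120 alternative values of the 10 genes, 107 kept direction and call, 9 made Col4a1 or Col4a2 a called rise, and 4 turned the sign of Nid1 or Nid2, which were not called. Beside the fit without miR-302 replicate 1, Col4a1 was called with genes at or above the median level (limma adjusted p = 0.0332), an intensity trend with a robust prior (0.0371), quantile normalization (0.0498) and array weights (0.00408), and Col4a2 with all of these but quantile normalization (0.0375, 0.0400 and 0.00518). Col4a2 passed the filter on level only through its miR-302 arrays, so its call in that fit is no further support. Array weights gave miR-302 replicate 1 a weight of 0.28, against 1.15 to 1.48 for the others, and turned Nid1 to 0.08. Leaving out 1 array gave −0.10 to 0.13 for Nid1, −0.04 to 0.21 for Nid2 and −0.17 to 0.29 for the change of Nid2 against Nid1, which was 0.13 with all arrays. The range over single arrays left out was 685 to 2484 genes higher and 1043 to 2911 lower over all genes, and 6 to 15 higher and 5 to 12 lower among the further lists, with the high ends without miR-302 replicate 1. Over all genes array weights called 2617 higher and 3004 lower. The cause of these differences was not tested.

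With the replicate number as a block, 964 genes were called higher and 1329 lower, and the same 4 of the 10 genes. The labels do not say that a number marks a shared batch. The deviations of same-numbered arrays from their group means correlated at 0.019, 0.017 and 0.008. Control replicates 1 and 2 correlated best with the miR-302 array of their number, and control replicate 3 with miR-302 replicate 2 (0.024). Values so near 0 do not decide the question. The numbers were not taken as pairs because the labels do not state pairs.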
